A study of Mus musculus with 8 samples.

Results

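Complex I, or NADH:ubiquinone oxidoreductase, was followed through the genes whose names on the array start with Nduf. These were 51 of 55681 non-control probes and 42 of 21743 named genes, taken by name alone and not by any measured value. They comprised 7 core subunits, 29 accessory subunits, 4 assembly factors and 2 further genes, Ndufa4 and Ndufa4l2, that carry the name without being counted as complex I subunits today. The cells were satellite cells, the stem cells that reside beside muscle fibres, taken from skeletal muscle of C57BL/6 mice labelled male and 3 months old. The injured group was taken 3 days after cardiotoxin (CTX), a venom peptide used to kill muscle fibres (n = 4 arrays), and the basal group from muscle in homeostasis (n = 4 arrays). In both groups the sort kept integrin alpha 7 positive cells and removed cells with CD31, CD45, CD11b or Sca1. Total RNA of each labelled biological replicate was put on 1 one-colour Agilent array, and the sources used here do not say whether animals were pooled. The arrays are called injured 1 to 4 and basal 1 to 4 after the replicate numbers in the labels.

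Complex I is the entry point of electrons from NADH into the mitochondrial respiratory chain and pumps protons across the inner membrane. Its matrix arm carries the NADH site and the chain of iron-sulfur clusters, and its membrane arm carries the proton channels. The core subunits do the catalysis and have bacterial counterparts, the accessory subunits surround them, and assembly factors help to build the complex without remaining in it. The hydrophobic core subunits of the membrane arm are encoded by mitochondrial DNA, and all Nduf genes by the nucleus. Satellite cells in resting muscle have few mitochondria and low respiration, and activation after injury is known for mitochondrial biogenesis.

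Some features of the arrays apply to every value below. All basal arrays shared 1 slide and scan and all injured arrays another, so injury and slide or scan cannot be told apart. Xist, the RNA of the inactive X chromosome in females, had log2 signals of 1.72, 6.37, 6.55 and 6.57 on injured 1 to 4, against 3.85, 2.15, -1.12 and -4.97 on basal 1 to 4. None of Ddx3y, Eif2s3y, Uty and Kdm5d, which lie on the Y chromosome, was well above background on injured 2, 3 or 4. These 3 arrays thus go against their male label, and counts of called genes are also given without them. Basal 1, basal 2, basal 3 and injured 1 had Xist beside Ddx3y (-0.76, -0.25, -0.07 and -2.19), both well above background. Their signals are thus not those of male cells alone either, and the reason was not tested. Per array, 50.1% to 56.7% of the spots were well above background and none was saturated. Pax7, the defining transcription factor of satellite cells, was above background on all 8 arrays and fell by 2.95 in the log2 signal on injured arrays (adjusted p = 1.8e-05 by limma), while Myf5 was above background on none. Log2 signals are relative to the 75th percentile of their own array, differences are injured minus basal, and errors are standard errors from limma unless an SD is named. Precision is limited by the number of arrays, and the p-values measure the spread between these samples, which may be technical in part.

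Promoters are shown first for 3 members, because they carry in a core subunit, an assembly factor and an accessory subunit the motif letters discussed at the end of the results. Each covers 250 bases before and 50 after the gene's start, read 5′ to 3′ on the gene's strand, from RefSeq on build GRCm38.p6. Capitals mark the letters of the YY1 motif in Ndufs7 (chr10:80249199-80249498, plus strand) and of the NRF1 motif in Ndufaf4 (chr4:24897833-24898132, plus strand) and Ndufa6 (chr15:82354242-82354541, minus strand).
Ndufs7: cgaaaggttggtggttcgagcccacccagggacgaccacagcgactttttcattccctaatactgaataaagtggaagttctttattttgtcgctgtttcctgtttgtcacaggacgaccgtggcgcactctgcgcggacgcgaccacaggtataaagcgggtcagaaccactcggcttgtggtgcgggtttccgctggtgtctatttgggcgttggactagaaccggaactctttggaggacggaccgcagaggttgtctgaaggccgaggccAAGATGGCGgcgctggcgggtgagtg
Ndufaf4: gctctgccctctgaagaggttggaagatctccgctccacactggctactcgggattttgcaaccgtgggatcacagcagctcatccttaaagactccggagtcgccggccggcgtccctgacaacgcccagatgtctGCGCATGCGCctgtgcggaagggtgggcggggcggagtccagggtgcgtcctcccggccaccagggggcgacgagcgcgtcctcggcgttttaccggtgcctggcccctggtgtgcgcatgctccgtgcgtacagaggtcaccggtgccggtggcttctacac
Ndufa6: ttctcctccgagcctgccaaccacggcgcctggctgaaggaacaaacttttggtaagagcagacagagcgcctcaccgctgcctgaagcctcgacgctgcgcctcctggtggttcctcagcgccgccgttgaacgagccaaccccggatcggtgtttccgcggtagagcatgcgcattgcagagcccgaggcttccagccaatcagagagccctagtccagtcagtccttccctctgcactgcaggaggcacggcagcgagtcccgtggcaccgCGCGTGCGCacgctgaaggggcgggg
Ndufs7 and Ndufaf4 were higher on injured arrays, and Ndufa6 was not called in either direction.

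After cardiotoxin, satellite cells had higher signal for nearly the whole nuclear-encoded complex. Of 41 Nduf genes tested, 36 were higher on injured arrays, none was lower and 5 were not called, at an adjusted p under 0.05 by limma with Benjamini-Hochberg adjustment over 13641 genes. Of all genes tested, 35.3% were called higher and 24.8% lower. In the authors' deposited table, run through the same test, 28 Nduf genes were higher and none lower. The calls over all genes there were 3290 higher and 772 lower, against 4822 and 3378 from the scanner files. Calls lost in that table were all of accessory subunits: Ndufa1, Ndufa2, Ndufa10, Ndufa11, Ndufa13, Ndufb2, Ndufb4 and Ndufb9. The median log2 difference of the Nduf genes was 1.26, a 2.40-fold rise, beside 0.17 over all genes tested. The called differences ran between 0.66 for Ndufb4 and 2.01 for Ndufab1. For 34 of the 41 genes all injured arrays were above all basal arrays, where 33.9% of all genes tested showed that order. The same 36 were the genes with an unadjusted p under 0.05. In bulk samples like these, a change in the share of a cell type and a change in RNA per cell cannot be told apart.

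**Figure D1:**
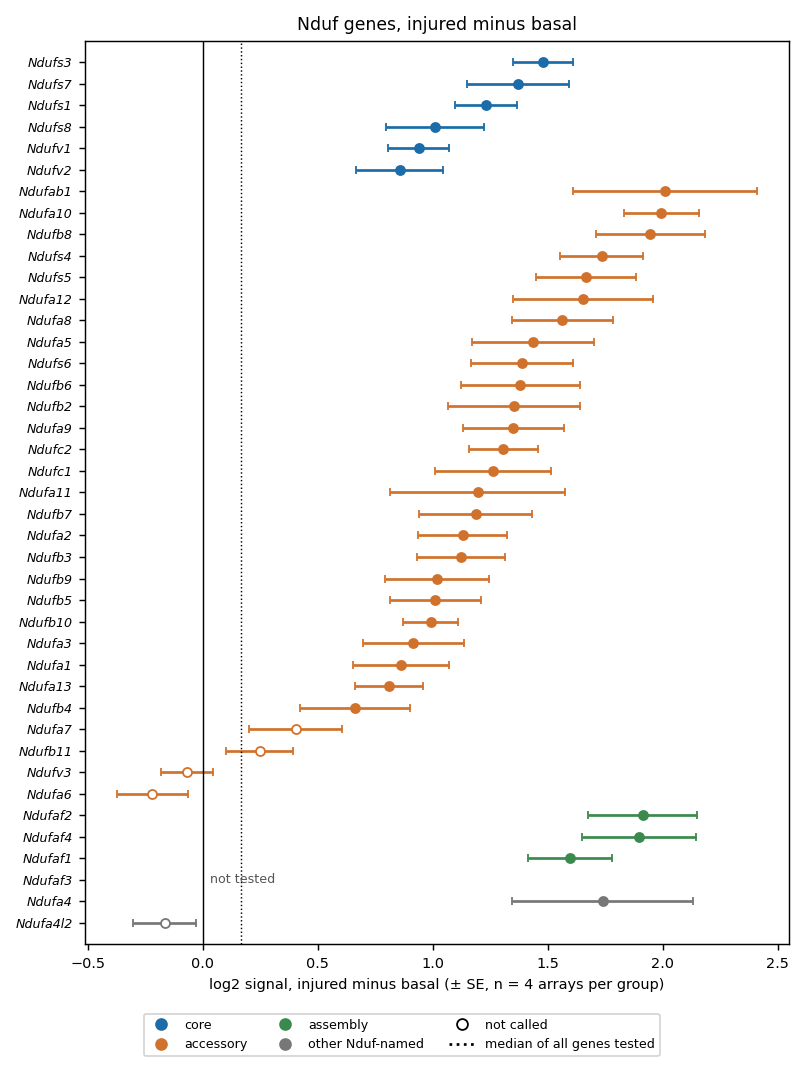
Log2 difference between injured and basal arrays for the Nduf genes reported here, with its standard error (n = 4 arrays per group), grouped by role and ordered by size. Filled circles were called and open circles were not; all filled circles lie right of 0, and the dotted line marks the median of all genes tested, 0.17.

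The core subunits rose as a full set, 7 of 7, with a median log2 difference of 1.23. Ndufs3, a subunit of the ubiquinone-binding part of the matrix arm, had log2 signals of 4.23, 4.34, 4.32 and 4.30 on injured arrays, against 3.03, 2.93, 2.62 and 2.69 on basal arrays. The injured arrays lay close together and well apart from every basal array. The probe of Ndufs3 lies at chr2:90734793-90734852 on the minus strand of mm9. The difference for Ndufs3 was 1.48 ± 0.13 (2.79-fold; adjusted p = 4.75e-05 by limma, n = 4 per group). Ndufs7, which holds the last iron-sulfur cluster before ubiquinone, had 5.11, 5.10, 5.08 and 5.11 on injured arrays, against 4.30, 3.93, 3.39 and 3.29 on basal arrays. The injured values were almost the same, while basal 1 stood highest in its group and basal 3 and 4 lowest. Ndufs7 differed by 1.37 ± 0.22 (adjusted p = 0.000913 by limma).

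Other core subunits act nearer to the NADH site or along the cluster chain. Ndufs1, the large iron-sulfur subunit, had 2.66, 2.76, 2.75 and 2.50 on injured arrays, against 1.61, 1.50, 1.18 and 1.45 on basal arrays, with a difference of 1.23 ± 0.14 (adjusted p = 0.000133 by limma). All its injured values exceeded all its basal values. Ndufs8, another cluster subunit, rose by 1.01 ± 0.21. Ndufv1, which binds NADH and the flavin, rose by 0.94 ± 0.13. Ndufv2, which carries a cluster beside the flavin, rose by 0.86 ± 0.19. The 2 flavoprotein core subunits thus had the smallest differences of the 7, though within about 1 standard error of Ndufs8.

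Among accessory subunits, 25 of 29 rose, none fell and 4 were not called, with a median log2 difference of 1.20. Ndufab1, the mitochondrial acyl carrier protein, which is also a part of complex I, had 0.25, 0.61, 0.43 and 0.05 on injured arrays, against -0.67, -1.47, -2.84 and -1.71 on basal arrays. The groups did not overlap, but the basal arrays were spread widely, with basal 3 lowest. The difference of 2.01 ± 0.40 for Ndufab1 (4.02-fold; adjusted p = 0.00261 by limma) had the largest standard error of all Nduf genes. Ndufa10, a membrane-arm subunit related to nucleoside kinases, had 3.10, 3.03, 3.00 and 2.98 on injured arrays, against 1.41, 1.08, 0.96 and 0.68 on basal arrays. The groups were far apart, with an SD of 0.05 on injured and 0.30 on basal arrays. The Ndufa10 probe lies across chr1:94361039-94363996 (mm9, minus strand), a span longer than the probe. Ndufa10 differed by 1.99 ± 0.16 (3.98-fold, adjusted p = 3.34e-05 by limma), but lost its call in the authors' deposited table.

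Ndufb8, a subunit of the far end of the membrane arm whose protein is often used as a readout of assembled complex I, had 5.22, 5.20, 5.06 and 5.02 on injured arrays, against 3.82, 3.32, 2.83 and 2.74 on basal arrays. Every injured array was above basal 1, the highest basal array. Ndufb8 differed by 1.95 ± 0.24 (adjusted p = 0.000209 by limma). Ndufs4, a late-joining matrix-arm subunit whose loss in mice causes an encephalopathy, had 2.45, 2.68, 2.59 and 2.18 on injured arrays, against 1.16, 0.65, 0.61 and 0.54 on basal arrays. Injured 4 was the lowest of its group and still above all basal arrays. Ndufs4 differed by 1.74 ± 0.18 (adjusted p = 0.000102 by limma).

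The other 21 accessory subunits that rose had differences between 0.66 and 1.67. Ndufs5 (1.67) and Ndufa12 (1.65) were at the upper end, and the probe of Ndufs5 also lists the transcript of its pseudogene Ndufs5-ps, whose signal it cannot separate. Ndufa13, also known as GRIM-19, rose by 0.81 ± 0.15, and Ndufb10 by 0.99 ± 0.12. By position, 13 of 16 core and accessory subunits of the matrix arm and 18 of 19 of the membrane arm were higher. Their median differences were 1.29 and 1.19, and their ranges overlapped broadly. Ndufa11, a membrane-arm subunit, had 2.02, 2.02, 2.27 and 1.99 on injured arrays, against 2.11, 0.83, 0.44 and 0.14 on basal arrays. Ndufb4, also of the membrane arm, had 2.72, 2.66, 2.90 and 2.71 on injured arrays, against 2.69, 2.26, 1.90 and 1.49 on basal arrays. In both genes basal 1 lay inside the range of the injured arrays, and these 2 were the called members whose groups overlapped. The call of Ndufa11 (adjusted p = 0.0239 by limma) was lost without basal 3, without basal 4 or without injured 3 (adjusted p = 0.0560 to 0.0602). That of Ndufb4 (adjusted p = 0.0393 by limma) was lost without basal 3, without basal 4 or without any 1 injured array (adjusted p = 0.0684 to 0.0940). Ndufb4 also lost its call with both quantile normalizations, with median scaling, without the filter on dim probes and with the replicate block. Both genes lost theirs in the authors' deposited table.

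**Figure D2:**
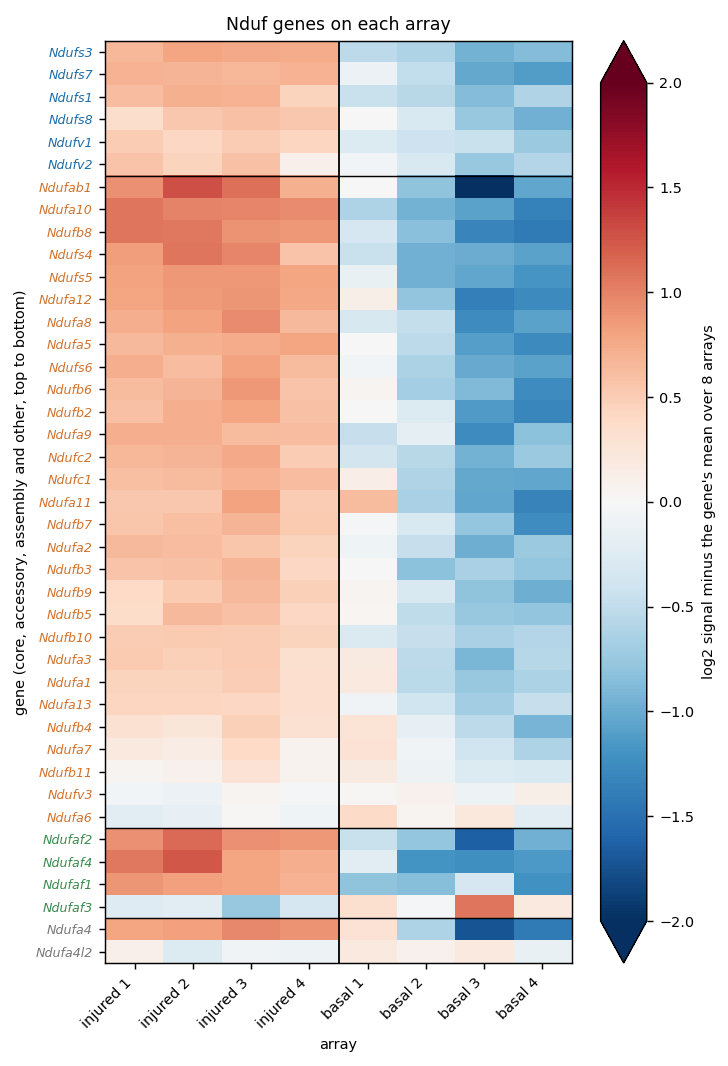
Log2 signal of the Nduf genes reported here on each array, minus the mean of that gene over the 8 arrays, with injured arrays left of the line and basal arrays right of it. Red is above and blue below the gene's own mean; the injured columns are alike, and basal 1 is the palest of the basal columns for most genes.

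The X-linked subunits were looked at apart, since Xist differed between arrays. Ndufa1, a small membrane-anchored subunit needed to start the membrane arm, had 3.02, 3.02, 3.07 and 2.90 on injured arrays, against 2.77, 2.04, 1.81 and 1.95 on basal arrays. Injured 1, where Xist was 1.72, was level with injured 2 to 4, where Xist was 6.37 to 6.57, and all were above the basal arrays. The part of Xist or of sex in these values was not tested. Ndufa1 differed by 0.86 ± 0.21 (adjusted p = 0.00673 by limma). Ndufb11, a membrane-arm subunit, had 4.99, 5.02, 5.23 and 4.999 on injured arrays, against 5.12, 4.84, 4.66 and 4.63 on basal arrays. Basal 1 was above 3 of the 4 injured arrays, so the groups overlapped. Its difference of 0.25 ± 0.15 did not pass the test (adjusted p = 0.168 by limma), and it was called without basal 1 (adjusted p = 0.0392).

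The other accessory subunits that did not pass were Ndufa7, Ndufa6 and Ndufv3, the last of these named after its values were seen. Ndufa7, of the matrix arm, had 4.32, 4.27, 4.53 and 4.20 on injured arrays, against 4.41, 4.05, 3.73 and 3.51 on basal arrays (0.41 ± 0.20, adjusted p = 0.112 by limma). Only basal 1 reached into the injured range, and without it Ndufa7 was called higher (adjusted p = 0.0172). Ndufa6, an LYR-motif subunit that binds the acyl carrier protein Ndufab1 at the foot of the matrix arm, had 2.18, 2.24, 2.43 and 2.33 on injured arrays, against 2.79, 2.47, 2.61 and 2.19 on basal arrays. Basal 1, 2 and 3 were above every injured array and basal 4 lay among them. Ndufa6 differed by -0.22 ± 0.15 (adjusted p = 0.245 by limma), and it was called lower under 3 other background corrections or normalizations, with differences of -0.33 to -0.51. Its partner Ndufab1 rose under all of them. Ndufv3, a small subunit at the edge of the flavoprotein part, had 1.85, 1.79, 1.96 and 1.88 on injured arrays, against 1.93, 1.99, 1.80 and 2.02 on basal arrays. The groups were mixed, with a difference of -0.07 ± 0.11 (adjusted p = 0.623 by limma).

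Of the 4 assembly factors named Nduf on the array, 3 were tested and all 3 were higher, with a median log2 difference of 1.90. That count is limited by detection: Ndufaf1 was tested through its injured arrays alone, and Ndufaf3 was left out as too dim. Ndufaf2, a relative of Ndufa12 that holds its place in a late intermediate, had 1.10, 1.32, 1.11 and 1.05 on injured arrays, against -0.26, -0.59, -1.45 and -0.78 on basal arrays. No basal array came near the injured ones. The Ndufaf2 probe lies at chr13:108843015-108843074 (mm9, minus strand). Ndufaf2 differed by 1.91 ± 0.24 (3.77-fold; adjusted p = 0.000244 by limma). Ndufaf4, which works with Ndufaf3 on the early ubiquinone-binding module, had 1.08, 1.27, 0.81 and 0.76 on injured arrays, against -0.20, -1.16, -1.19 and -1.12 on basal arrays. Basal 1 stood above the other basal arrays, which were alike, and below all injured arrays. Ndufaf4 differed by 1.90 ± 0.25 (adjusted p = 0.000296 by limma).

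Ndufaf1, a factor of the intermediate that builds the membrane arm, had -1.52, -1.57, -1.60 and -1.69 on injured arrays, against -3.19, -3.24, -2.73 and -3.59 on basal arrays. It was well above background on 4 injured arrays and on 1 basal array, so its difference of 1.60 ± 0.18 (adjusted p = 0.000158 by limma) rests in part on dim values. Ndufaf3 had -3.16, -3.11, -3.66 and -3.23 on injured arrays, against -2.58, -2.95, -1.83 and -2.71 on basal arrays, and was well above background on no injured array and on 2 basal arrays. It was therefore not tested. Per injured array, the higher of its own value and the dimmest signal well above background was taken. Set against the basal mean, these gave a signal 1.46-fold lower on injured arrays. That figure is no firm bound, since the basal mean also holds values not well above background. Without the filter on dim probes the difference was -0.78 ± 0.25 (adjusted p = 0.0420 by limma). Ndufaf3 thus lay on the other side of 0 from Ndufaf4, its partner, at signals near the limit of detection.

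Ndufa4 was first described with complex I and is now counted as a subunit of cytochrome c oxidase. It had 2.74, 2.76, 2.91 and 2.84 on injured arrays, against 2.23, 1.32, 0.21 and 0.53 on basal arrays. All injured arrays were above all basal arrays, whose SD of 0.90 was wide. Ndufa4 differed by 1.74 ± 0.39 (adjusted p = 0.00485 by limma). Its paralog Ndufa4l2, a target of hypoxia-inducible factor that lowers complex I activity, had -1.86, -2.23, -2.04 and -2.07 on injured arrays, against -1.77, -1.88, -1.77 and -2.11 on basal arrays. The groups overlapped, and the difference of -0.17 ± 0.14 did not pass the test (adjusted p = 0.321 by limma).

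Genes called Nduf today under other array names gave the same direction, 6 of 6 higher, where 35.3% of all genes tested were. Their median difference was 0.96. They were the assembly factors Ndufaf5 (0.60), Ndufaf6 (1.07), Ndufaf7 (0.70) and Ndufaf8 (1.01), the accessory subunit Ndufb1 and Ndufa11b (0.92). Ndufb1 was above background on 3 injured arrays and no basal array. It was thus tested through its injured arrays alone and adds little to that count. Its means were -2.49 on injured and -4.51 on basal arrays. With the injured mean taken as measured, that is a signal at least 1.62-fold higher on injured arrays. The test was of the measured difference of 2.02, with basal values not above background (adjusted p = 0.00162 by limma).

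Most members with several probes gave like results from each. Of 50 Nduf probes tested, 42 were higher, 1 was lower and 7 were not called, with p adjusted over 31315 probes, of which 31.7% were higher and 25.1% lower. Both probes were higher for Ndufa5, Ndufaf4, Ndufb2, Ndufb4, Ndufb5 and Ndufb6. Their sizes differed most for Ndufb5 (1.01 and 1.91) and Ndufaf4 (1.90 and 2.81), and the dimmer Ndufaf4 probe was above background on 2 basal arrays. The exceptions to like results were Ndufb11 and Ndufv3. Their probes are shown as the first 30 bases of each 60-base probe, 5′ to 3′, with bases shared by overlapping probes in capitals and mm9 coordinates from the files. Whether a probe lies in coding sequence or a UTR was not looked up, since no annotation of mm9 was used here.
Ndufb11, A_55_P1980566 (chrX:20192453-20192512, minus strand): tcatcCGCTGCTTGTTATTTACCTGGTTCC
Ndufb11, A_55_P2012206 (chrX:20192448-20192507, minus strand): CGCTGCTTGTTATTTACCTGGTTCCTCAGA
Ndufb11, A_55_P2073582 (chrX:20194630-20194689, minus strand): ttccctacagggccatctagatgtcaccgc
Ndufv3, A_55_P2184180 (chr17:31668209-31668268, plus strand): ggtagaccccgatgttggttcccatgaatc
Ndufv3, A_51_P140211 (chr17:31665148-31665207, plus strand): gtgccagaaggaggctcccaggtccaggag
The first 2 Ndufb11 probes share 55 of their bases, and the third starts at base 1 of the transcript the files list for it.

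The overlapping Ndufb11 probes both differed by 0.25 and were not called (adjusted p = 0.177 and 0.157 by limma). The probe A_55_P2073582 at the start of the transcript had -4.68, -4.95, -4.17 and -4.68 on injured arrays, against -1.48, -1.46, -3.17 and -2.27 on basal arrays. It was well above background on no injured array and on 3 basal arrays, and the groups did not overlap. Its signal averaged -4.62 ± 0.32 on injured arrays and -2.09 ± 0.81 on basal arrays (SD, n = 4 each). With the basal mean taken as measured, that is at least 2.14-fold lower on injured arrays. The test was of the measured difference of -2.53, with injured values not above background (adjusted p = 0.000689 by limma). With all 3 probes averaged, Ndufb11 was called lower (-0.68, adjusted p = 0.0181 by limma), a value that rests on this probe, for which the injured arrays give only a bound. For Ndufv3, the files list the probe A_55_P2184180 with 2 RefSeq transcripts and A_51_P140211 with 1 of these. The probe A_51_P140211 had -0.19, -0.14, -0.16 and 0.14 on injured arrays, against 0.56, -0.06, 0.34 and 0.71 on basal arrays. Basal 2 lay among the injured arrays and the other basal arrays above them. Its difference of -0.47 ± 0.18 did not pass the test (adjusted p = 0.0556 by limma), against -0.07 for the other probe.

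**Figure D3:**
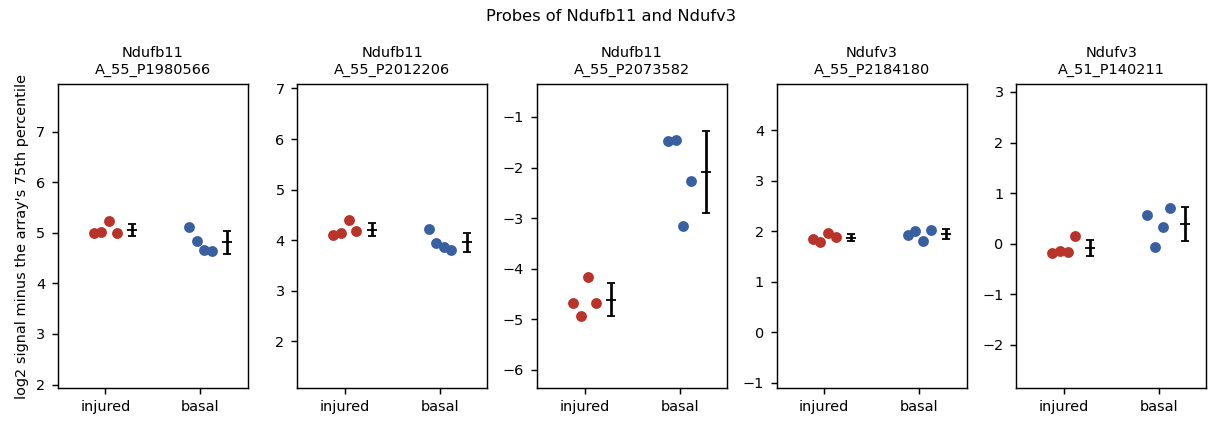
Log2 signal relative to the array's 75th percentile for each probe of Ndufb11 and Ndufv3, on 4 injured (left) and 4 basal (right) arrays, with the mean ± SD beside the points; all panels span the same number of log2 units. The probe A_55_P2073582 is the one whose groups are far apart, with means of -4.62 on injured and -2.09 on basal arrays.

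The basal arrays were graded in nearly all members. The median deviation of the 41 genes from their own mean was 0.61, 0.63, 0.69 and 0.53 on injured 1 to 4, against -0.04, -0.52, -0.91 and -0.96 on basal 1 to 4. Basal 1 was the highest basal array for 36 of the 41 genes, or 87.8%, where it was so for 32.3% of all genes tested and for 55.4% of all genes called higher. Genes of complexes II to V had basal 1 highest in 92.1% of 38. The SD over basal arrays exceeded that over injured arrays for all 41 Nduf genes, for 94.7% of the genes of complexes II to V and for 79.5% of all genes tested. For the Nduf genes the median SD was 0.10 over injured and 0.43 over basal arrays. Without basal 1 and basal 2, the median difference of the Nduf genes was 1.57, beside 0.15 over all genes, and 38 were called higher. The summed signal of 12 endothelial markers also fell from basal 1 to basal 4. It was 11.2, 10.7, 11.5 and 13.2 times the array's 75th percentile on injured 1 to 4. On basal 1 to 4 it was 49.6, 38.9, 28.8 and 24.3 times. Kdr made up 15.4% to 79.0% of that sum, and most markers were split rather than graded. Pecam1 had log2 signals of 3.20, 2.87, -2.20 and -3.22 on basal 1 to 4. All markers but Kdr and Tek were higher on basal 1 and 2 than on basal 3 and 4. Tek ran the other way, with its highest values on basal 3 and 4 (4.33 and 3.97). Xist fell in the same order as the sum over the basal arrays. The part of Xist or of the endothelial markers in the gradient of the Nduf genes was not tested.

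With injured 1 as the only injured array, whose lone value is assumed to vary like the basal arrays, all 36 Nduf genes called higher were still higher on it than the basal mean. The median difference was then 1.23, but 8 passed the test, where 756 of 13641 genes were called higher. Ndufs3, Ndufa10, Ndufb8 and Ndufaf4 were among them. Injured 1 lay above all basal arrays for 35 of the 41 genes, or 85.4%, where it did so for 42.1% of all genes tested. Among genes called higher with all arrays, the share was 97.2% of the Nduf genes and 97.8% of all genes.

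The core subunits encoded by mitochondrial DNA did not pass the test in either direction. Of ND1, ND2, ND3, ND4, ND4L and ND5, 0 of 6 were called by limma, 1 had an unadjusted p under 0.05, and the median difference was 0.06. ND4, a proton-pumping subunit, had 7.13, 7.09, 7.12 and 7.25 on injured arrays, against 7.48, 7.63, 7.72 and 7.19 on basal arrays. Basal 4 lay within the injured range and the other basal arrays above it. Its difference of -0.36 ± 0.14 had an adjusted p of 0.0547 by limma, and ND4 was called lower without basal 4 and under 6 other settings given in the closing section. The differences of the other 5 ran between -0.11 and 0.23. The files place the probes of ND3 and ND4L on chromosome 1 of mm9, not on the mitochondrial genome, so the files do not tie those 2 to mitochondrial transcripts alone. Without ND3 and ND4L, the remaining 4 differed by 0.01 (ND1), 0.23 (ND2), -0.36 (ND4) and 0.11 (ND5).

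Most genes of the other complexes of oxidative phosphorylation were higher too. Of 38 tested genes of complexes II to V, 37 were higher and none was lower, beside 35.3% and 24.8% of all genes tested. Their median difference was 1.55. Sdhd, a membrane anchor of complex II, rose by 2.80 ± 0.27 (adjusted p = 6.67e-05 by limma), and Atp5g3, which encodes the c subunit of ATP synthase, rose by 2.71 ± 0.36 (adjusted p = 0.000354 by limma). Cox6b1 did not pass (0.87 ± 0.35, adjusted p = 0.0618 by limma), and its basal 1 value was at the top of the injured range.

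Of 10 tested complex I assembly factors without an Nduf name, 6 were higher and 2 lower, beside 35.3% and 24.8% of all genes tested. Their median difference was 1.01. Nubpl, which delivers iron-sulfur clusters to complex I, rose by 1.87 ± 0.35 but was above background on 1 basal array, and Ecsit, a partner of Ndufaf1 and Acad9, rose by 1.86 ± 0.25, though its difference was -0.011 in the authors' deposited table. Acad9 itself rose by 1.03 ± 0.11. Tmem126b and Tmem186 were too dim to be tested. Sfxn4 had -4.40, -2.81, -2.44 and -2.76 on injured arrays, against -1.14, -1.97, 0.25 and -0.82 on basal arrays. The groups did not overlap, and 1 injured array was above background. Sfxn4 fell by 2.18 ± 0.54 in the log2 signal (adjusted p = 0.00773 by limma). Timmdc1, a membrane-arm assembly factor, fell by 0.34 ± 0.11 (adjusted p = 0.0244 by limma), but the mean of all its probes was higher by 0.14 and did not pass.

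Of 11 tested regulators of mitochondrial gene expression, 7 were higher and none was lower, beside 35.3% and 24.8% of all genes tested. Their median difference was 0.76. Tfam, which packages and transcribes mitochondrial DNA, rose by 1.70 ± 0.38, and Ppargc1b, a coactivator of respiratory genes, rose by 1.44 ± 0.18. Esrra, Gabpa, Gabpb1, Tfb2m and Polrmt also rose. Nrf1 differed by 0.08 and Yy1 by 0.32, and neither passed (adjusted p = 0.651 and 0.174 by limma). Ppargc1a had a difference of -0.77 (adjusted p = 0.0578 by limma).

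Promoter windows were in the RefSeq table for 37 of the 42 Nduf genes. Both strands were searched for 4 motifs, each spelled exactly, and compared with the windows of 27025 genes. The NRF1 motif GCGCANGCG was in 9 of 37 Nduf windows (24.3%) and in 7.03% of all genes' windows. The YY1 motif AANATGGCG was in 7 (18.9%) and in 2.76% of all. The estrogen-related receptor motif AAGGTCA was in 3 (8.11%) and 5.38% of all, and the GABPA or ETS motif CCGGAAGT in 1 (2.70%), Ndufs3, and 4.31% of all. Of the 9 genes with the NRF1 motif 8 were called higher, the exception being Ndufa6. Of the 7 with the YY1 motif 5 were, the exceptions being Ndufa7 and Ndufb11. Beside these counts, 36 of all 41 Nduf genes tested were called higher, so they do not set the genes with a motif apart.

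In the sequences printed above, the Ndufaf4 window has the NRF1 letters on both strands, as 2 overlapping matches that make 10 bases starting 113 bases before the gene's start. The letters in Ndufa6 and in Ndufs7 both begin 24 bases after the start. In Ndufs7 the YY1 letters contain ATG, so that motif and the sequence around a start codon share letters. A match describes the window and not a bound site.

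**Figure D4:**
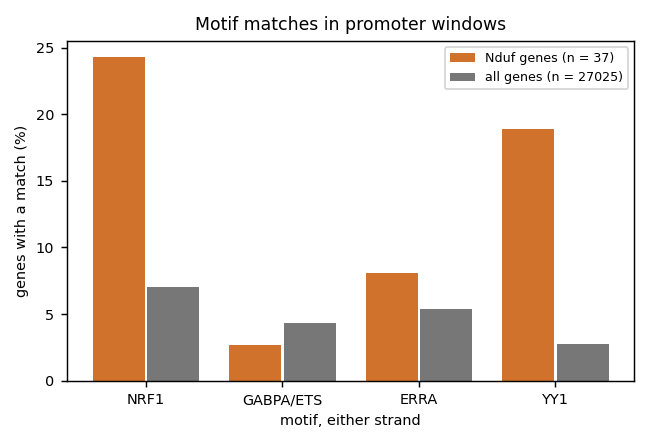
Share of genes whose promoter window, 250 bases before to 50 after the start, holds each motif on either strand, for 37 Nduf genes and for all 27025 genes in the table. NRF1 (24.3% and 7.03%) and YY1 (18.9% and 2.76%) are the motifs with the widest gaps.

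Markers of other cells also differed between the groups for some of the lists. Of all genes tested, 35.3% were called higher and 24.8% lower. The endothelial and macrophage counts lay below these shares in both directions. Of 12 pericyte markers tested 8 were lower, and Rgs5, Pdgfrb, Kcnj8 and Abcc9 were above background on no injured array; the summed signal of the list was 939 to 1074 times the array's 75th percentile on injured arrays, against 1220 to 1402 on basal arrays. Mcam, which differed by -0.32, made up 88.6% to 97.7% of that sum, and the other 11 summed to 23.0 to 37.0 on injured arrays, against 102.3 to 159.9 on basal arrays. Of 7 markers of fibro-adipogenic progenitors tested 6 were lower, with sums of 8.22 to 12.02 on injured arrays, against 61.7 to 93.3 on basal arrays. Col3a1 made up 52.4% to 73.4% of that sum, and the rest came to 2.19 to 3.89 on injured arrays, against 24.1 to 39.2 on basal arrays. The defining marker Pdgfra was above background on none. Of 10 endothelial markers tested 2 were lower and 1 higher. Of 9 macrophage markers tested, Laptm5 (3.97) and Tyrobp (1.99) were higher and Csf1r (-0.30) lower, and C1qc was above background on none. Their sums, 496 to 587 on injured arrays, against 474 to 543 on basal arrays, were 89.8% to 92.6% Itgam and so do not describe the list. Of 8 fibre genes tested 4 were higher and 2 lower, with sums of 109 to 164 on injured arrays, against 43.8 to 53.0 on basal arrays. Atp2a1 made up 52.4% to 84.0% of that sum, and the rest came to 33.0 to 71.9 on injured arrays, against 8.45 to 17.3 on basal arrays. Myh2, Ckm and Mb were above background on no injured array. Of 13 satellite cell genes tested 8 were lower and 3 higher, with sums of 123 to 157 on injured arrays, against 209 to 275 on basal arrays. The part of these markers in the rise of the Nduf genes was not tested.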

How the data were processed

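Spot signals are intensity values as deposited by the authors, per the file headers from version 10.7.3.1 of Agilent Feature Extraction, with probe positions on mm9. The authors' deposited normalized table holds log2 values by their range; the submitters' processing notes name limma, and how that table was made is not given there. Its columns correlated at r = 0.70 to 0.93 with their own array's log2 signal across 24776 spots, which are not independent replicates, so it served as an alternative only.

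The log2 processed signal minus the array's 75th percentile was averaged per probe, without control or outlier spots. Probes were named by accession (26251), symbol (2042), synonym (355) or the array's own name (548, and the 51 Nduf probes), and 26434 had no name. A gene is its probe with the highest mean, tested where 3 or 4 arrays of a group had it well above background. The comparison of injured with basal arrays used limma 3.58.1 under R 4.3.3 (lmFit and eBayes, two-sided, 6 residual and 2.55 prior degrees of freedom), with Benjamini-Hochberg adjustment over 13641 genes and a threshold of 0.05. On simulated data with 13641 genes, 45 of 50 genes changed by 2 and 29 of 50 changed by 1 on the log2 scale were called higher. Only 50 genes were changed per size, far fewer than the 4822 called higher in the data, so these shares need not hold here. The number of arrays, 4 per group, limits precision.

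Members and lists were chosen with earlier results of these data known. Given in full were, per class, up to 4 called members with the largest rise, up to 3 with the largest fall and up to 3 not called, with Ndufa4, Ndufa4l2, the X-linked subunits and members below background in a group; from the other lists, up to 2 called members each way. Ndufa11, Ndufb4, Ndufv3, ND4, Acad9, the genes that illustrate counts and the probes of Ndufb11 and Ndufv3 were chosen after their values were seen. One member counts in the totals and is not reported here by itself. Replicate numbers were checked for pairing: deviations of same-numbered arrays correlated at -0.0013 to 0.094 across genes, so the numbers were not taken as pairs. The alternatives were quantile normalization, normexp (offset 50) with either scaling, median scaling, the deposited table, other filters and probe rules, limma's trend and robust options, the replicate block and leaving out arrays. Pandas and matplotlib were used for summaries and figures.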

Additional observations from a re-analysis of the deposited data

Results flagged for a closer look

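Over the 42 genes and 2 groups, 84 groups of 4 arrays were screened for 1 array far from the other 3, and 4 stood out; chance flags about 1 in 20 groups. On injured arrays, Ndufa11 was 2.27 on injured 3, against 1.99 to 2.02 on the others. Ndufb11 was 5.23 on injured 3, against 4.99 to 5.02 on the others. Ndufa13 was 6.07 on injured 4, against 6.15 on each of the others. On basal arrays, Ndufaf4 was -0.20 on basal 1, against -1.19 to -1.12 on the others.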

How the results depend on the processing

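The 36 Nduf genes called higher kept their direction under every alternative in which they were tested, and 34 to 38 Nduf genes were called higher in all of them but 2. From the authors' deposited values 28 were, and without injured replicates 2, 3 and 4 only 8, a setting that leaves 1 injured array. The median difference of the Nduf genes was 0.89 to 1.57, beside 0.05 to 0.47 over all genes tested. Leaving out 1 array at a time gave 34 to 38 called higher, 0 called lower and medians of 1.15 to 1.42. Against 0 called lower, 1 was with quantile normalization, 2 with normexp and quantile normalization and 1 with normexp and the 75th percentile, all accessory: Ndufa6, joined by Ndufv3 in the second. With no filter 1 was lower, the assembly factor Ndufaf3, and with the mean of all probes 1, the accessory subunit Ndufb11. Without injured replicates 2, 3 and 4, called higher were 3 core, 3 accessory, 7 complex II to V, 0 other assembly and 1 regulator genes.

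No ND gene was called higher except 1 without basal replicates 1 and 2. Called lower was 1, ND4, with quantile normalization, both normexp settings, median scaling, genes above background on all arrays, limma's trend and robust options and without basal replicate 4. Leaving out 1 array gave 0 to 1 ND genes lower. Of the other assembly factors, 2 were lower at first and 0 in the authors' deposited table; 1 was with both quantile settings, no filter, all arrays above background, the mean of all probes, without basal replicates 1 and 2 and without injured replicates 2, 3 and 4, and 1 to 2 when 1 array was left out. Among regulators, Ppargc1a made 1 lower with median scaling and with all arrays above background, and 0 to 1 when 1 array was left out.

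With the replicate block, 35 Nduf genes were higher, Ndufb4 losing its call (adjusted p = 0.0555), and 1 other assembly factor and 1 regulator were lower; this number is no pairing in the design. A slide block was not run, since each slide holds 1 group.

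Some directions reversed. Ndufb11 had -0.11 and -0.069 in the quantile and the normexp and quantile settings and -0.68 with the mean of all probes. In those quantile settings ND1 had -0.16 and -0.087, ND4L -0.13 and -0.14, and ND5 -0.12 and -0.17. ND1 had -0.075 with median scaling, -0.015 without injured replicates 2, 3 and 4, and -0.15 to 0.10 when 1 array was left out, where ND5 had -0.046 to 0.26. ND3 had 0.85 in the authors' deposited table and 0.082 without basal replicates 1 and 2. Ndufa4l2 had 0.026 without injured replicates 2, 3 and 4, Ecsit -0.011 in the authors' deposited table and Timmdc1 0.14 with the mean of all probes. The cause of these changes was not tested. Signal over background limits, among others, Ndufaf1, Ndufaf3, Ndufb1, Nubpl, Sfxn4 and the Ndufb11 probe at the transcript's start, on which the last Ndufb11 value rests.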
